A study of Mus musculus with 6 samples.

Results

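The HoxA, HoxB, HoxC and HoxD clusters of the mouse are 4 stretches of DNA that hold the 39 Hox genes of this species. They were taken by position, as chr6:52100001-52220000 for HoxA, chr11:96050001-96235000 for HoxB, chr15:102745001-102870000 for HoxC and chr2:74490001-74610000 for HoxD (genome build mm9). The measured units were their CpG sites covered by at least 5 reads in every one of 3 cell lines and at most 80, 40 and 45 reads in the SETD2 knockout, DNMT3B1 and DNMT3A2 lines. Of 13063 CpG sites listed in the clusters 8834 met this rule, out of 7065841 sites that met it in the whole series of 20782144. HoxA gave 2809 sites, HoxB 2874, HoxC 1232 and HoxD 1919. In HoxC 47.4% of the listed sites met the rule, against 83.1% in HoxA, so the values of HoxC rest on the fewest reads.

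The assay was whole-genome bisulfite sequencing, which converts unmethylated cytosines, so that a C left at a CpG marks a methylated read. All 3 lines were mouse embryonic stem cells null for the methyltransferase genes of DNMT1, DNMT3A and DNMT3B (TKO cells). The first line lacked SETD2 as well and expressed DNMT3B1, the second expressed DNMT3B1 with SETD2 present, and the third expressed DNMT3A2. Growth was on feeder cells or on gelatine-coated dishes, and the labels list 2 sequencing runs per line and name no separate cultures or clones. The deposited values come as 1 set per line, the 2 sets of the SETD2 knockout line being identical, and the amount of each enzyme was not measured here. Each line is therefore 1 library, and no p-value between lines is given. Exact binomial intervals of levels cover counting error alone, and intervals of log2 ratios cover counting error and local variation between CpGs. Neither kind covers the spread between cultures.

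Hox genes encode homeodomain transcription factors that give cells their position along the body axis, and the genes at one end of a cluster act in more anterior parts of the embryo than those at the other. In embryonic stem cells the clusters are mostly silent and are known as large domains of Polycomb repression, rich in CpG islands that normally stay unmethylated. DNMT3A and DNMT3B are the de novo methyltransferases, DNMT3A2 is the short isoform of DNMT3A that prevails in embryonic stem cells, and DNMT1 copies existing methylation. SETD2 places the trimethyl mark on lysine 36 of histone H3 along transcribed genes, and the PWWP domain of DNMT3B binds that mark.

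The clusters were denser in CpGs than the rest of the autosomes. A Hox site had on average 45.3 CpGs in the 1 kb around it, against 20.8 at the 6989710 autosomal sites that met the same rule more than 1 Mb from any cluster, and 50.6% of Hox sites lay at 40 or more CpGs per kb, against 11.7%. HoxD was the densest at 55.9 CpGs per kb and HoxB the least dense at 36.7. Mean coverage of the Hox sites was 25.0 reads in the SETD2 knockout line, 14.5 with DNMT3B1 and 14.9 with DNMT3A2, against 12.7 to 18.9 reads at the autosomal sites. The SETD2 knockout values list only sites with at least 10 reads, which left out between 9.65% of the listed sites of HoxA and 36.3% of those of HoxC. Because autosomal methylation changes with CpG density in these lines, and falls steeply above about 20 CpGs per kb, each value below is set against the level that autosomal sites of the same density had, called the density-matched level.

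Gene starts were located by sequence, since gene models of mm9 were not used. Promoter sequences from RefSeq (build GRCm38.p6) were placed on the sites by the exact spacing of their CpGs, and 24 promoters of 22 of the 39 Hox genes were placed once. Each fell inside the window of its own cluster. The sequences shown are, for HoxA, HoxB and HoxD, the Hox promoter with the highest and the one with the lowest mean level over the 3 lines among those with at least 5 measured sites, since they show which CpGs of a Hox promoter carried a methylated read. HoxC had no Hox promoter with 5 measured sites, and HoxB had only Hoxb8 and Hoxb4. In HoxD the second annotated start of Hoxd11 tied for the lowest with Hoxd1 and Hoxd8, all without a methylated read. Each line gives the 250 bases before the gene start from RefSeq, 5′ to 3′ on the gene's strand, with a CpG in capitals where at least 1 read of any line was methylated, and a CpG in lower case had no such read or was not measured. The positions before each are the first and the last CpG site of the placed promoter in mm9.
Hoxa2 (highest in HoxA, chr6:52114800-52115064, minus strand): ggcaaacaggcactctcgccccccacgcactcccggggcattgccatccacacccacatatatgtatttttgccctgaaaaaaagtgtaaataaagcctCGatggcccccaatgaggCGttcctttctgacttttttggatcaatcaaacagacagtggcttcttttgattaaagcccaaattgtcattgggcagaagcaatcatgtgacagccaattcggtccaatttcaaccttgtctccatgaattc
Hoxa5 (lowest in HoxA, chr6:52154559-52154825, minus strand): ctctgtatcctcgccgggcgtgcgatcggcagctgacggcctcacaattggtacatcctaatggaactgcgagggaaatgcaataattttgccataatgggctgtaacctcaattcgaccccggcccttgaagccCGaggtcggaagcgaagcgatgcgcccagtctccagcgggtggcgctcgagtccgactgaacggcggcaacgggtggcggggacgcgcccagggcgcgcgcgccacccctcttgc
Hoxb8 (highest in HoxB, chr11:96142980-96143241, plus strand): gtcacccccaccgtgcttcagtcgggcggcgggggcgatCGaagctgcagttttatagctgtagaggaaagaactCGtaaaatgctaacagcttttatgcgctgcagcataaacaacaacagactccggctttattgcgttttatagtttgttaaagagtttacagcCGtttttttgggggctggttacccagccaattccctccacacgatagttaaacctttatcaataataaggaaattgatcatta
Hoxb4 (lowest in HoxB, chr11:96179331-96179578, plus strand): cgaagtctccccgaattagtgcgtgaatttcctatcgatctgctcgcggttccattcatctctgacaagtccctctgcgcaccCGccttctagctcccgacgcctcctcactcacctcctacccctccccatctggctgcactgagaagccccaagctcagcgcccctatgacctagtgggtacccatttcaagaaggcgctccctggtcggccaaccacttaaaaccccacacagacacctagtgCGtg
Hoxd12 (highest in HoxD, chr2:74512863-74513117, plus strand): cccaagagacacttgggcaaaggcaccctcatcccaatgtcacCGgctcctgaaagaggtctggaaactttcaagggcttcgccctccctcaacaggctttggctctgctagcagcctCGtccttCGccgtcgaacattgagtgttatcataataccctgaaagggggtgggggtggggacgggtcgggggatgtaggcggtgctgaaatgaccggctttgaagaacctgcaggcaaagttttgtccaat
Hoxd11 (lowest in HoxD, chr2:74520135-74520420, plus strand): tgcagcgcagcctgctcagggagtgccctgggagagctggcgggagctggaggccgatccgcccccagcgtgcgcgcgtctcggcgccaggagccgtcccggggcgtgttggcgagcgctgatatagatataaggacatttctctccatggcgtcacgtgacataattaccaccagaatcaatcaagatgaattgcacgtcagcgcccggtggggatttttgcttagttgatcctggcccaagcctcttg
In the printed stretch of Hoxa2 5 of 6 CpGs were measured and 2 are in capitals, and in that of Hoxa5 15 of 28 were measured and 1 is in capitals. Hoxb8 has 11 of 12 measured with 3 in capitals, and Hoxb4 7 of 14 with 2. Hoxd12 has 8 of 10 measured with 3 in capitals, and the second annotated start of Hoxd11 has 18 of 20 with none.

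The first comparison asked how much methylation the clusters carried in each line. All 4 clusters were almost free of it, and the SETD2 knockout line had the highest level and the DNMT3B1 line the lowest. Over the 8834 Hox sites 2.60% of reads were methylated in the SETD2 knockout line (5748 of 220902, exact 95% binomial interval 2.54% to 2.67%), 0.716% in the DNMT3B1 line (0.670% to 0.764%) and 1.92% in the DNMT3A2 line (2526 of 131817, 1.84% to 1.99%). The density-matched levels were 2.93%, 1.31% and 3.39% in the same order of lines. Much of the distance to the autosomal averages of 5.88%, 2.76% and 7.30% was thus already present at autosomal sites of the same CpG density.

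Set against the density-matched level, the Hox clusters were lower in all 3 lines, but by different amounts. They stood at 0.887 times that level in the SETD2 knockout line, a log2 ratio of -0.17 (95% interval -0.27 to -0.08). In the DNMT3B1 line they stood at 0.545 times it (-0.87, -1.05 to -0.70), and in the DNMT3A2 line at 0.565 times it (-0.82, -0.96 to -0.69). The interval of the SETD2 knockout line reached 0 when 10 reads were required of every line (-0.11, -0.23 to 0.01), and when sites were matched on density in 10 kb as well as in 1 kb (-0.09, -0.18 to 0.01), a setting chosen after seeing the data. The clusters were also more deeply covered than other DNA, and with matching on coverage as well the 3 log2 ratios were -0.14, -0.88 and -0.83. A level below the density-matched one was not particular to the clusters. Other autosomal promoters had log2 ratios of -0.54 (-0.57 to -0.50), -0.73 (-0.79 to -0.66) and -0.73 (-0.78 to -0.68) in the SETD2 knockout, DNMT3B1 and DNMT3A2 lines.

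In the DNMT3B1 and DNMT3A2 lines each of the 4 clusters was below its density-matched level. In the SETD2 knockout line the log2 ratio was -0.07 in HoxA (-0.24 to 0.09), -0.19 in HoxB (-0.34 to -0.03), -0.38 in HoxC (-0.65 to -0.10) and -0.23 in HoxD (-0.45 to -0.00). In the DNMT3B1 line it was -0.98 in HoxA, -0.83 in HoxB, -0.88 in HoxC and -0.78 in HoxD, and the widest interval was that of HoxC (-1.41 to -0.34). In the DNMT3A2 line it was -0.91, -0.71, -0.91 and -0.97 in the same order of clusters, and all 8 intervals of these 2 lines excluded 0. At a minimum of 10 reads that of HoxC in the DNMT3B1 line included 0 (-0.60, -1.28 to 0.08), as did those of HoxB, HoxC and HoxD in the SETD2 knockout line (-0.13, -0.33 and -0.15). Within each line the intervals of the 4 clusters overlapped one another, and differences between clusters were not tested.

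**Figure D1:**
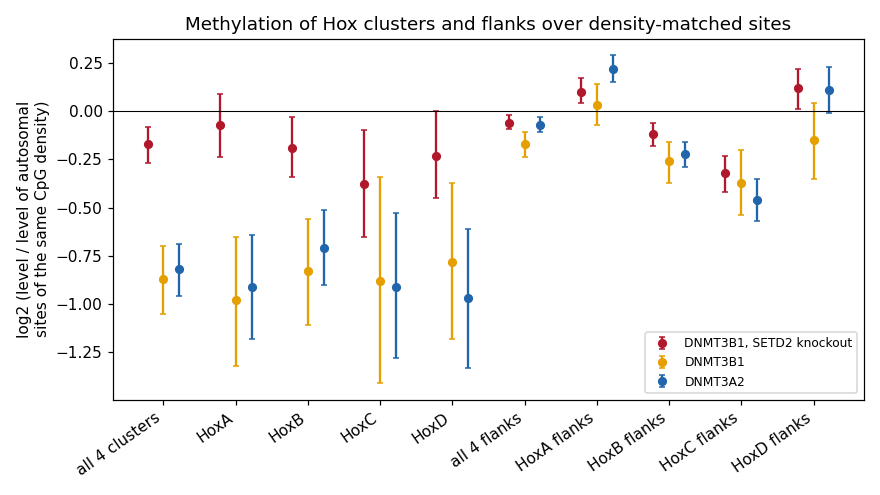
Log2 ratio of the methylation level to the level of autosomal sites of the same CpG density, for all 4 Hox clusters, each cluster, and the 500 kb on each side (flanks), in the SETD2 knockout, DNMT3B1 and DNMT3A2 lines. Points are values of 1 library per line and bars 95% intervals from 500 bp blocks; the DNMT3B1 and DNMT3A2 points of every cluster lie between -0.71 and -0.98, whereas those of the SETD2 knockout lie between -0.07 and -0.38.

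Long windows as low as the clusters were rare in the genome in the DNMT3B1 and DNMT3A2 lines. Of 11667 autosomal windows of 100 kb with at least 200 sites, 0.943% had a log2 ratio as low as that of HoxA in the DNMT3B1 line and 0.891% in the DNMT3A2 line. For HoxB the shares were 1.77% and 2.20%, for HoxC 1.48% and 0.900%, and for HoxD 2.37% and 0.703%. Windows as low in the SETD2 knockout line made up 35.2% for HoxA, 20.2% for HoxB, 6.44% for HoxC and 16.5% for HoxD. The windows were not chosen for CpG content, and autosomal sites averaged 20.8 CpGs per kb against 45.3 in the clusters. How rare such levels are among windows as CpG-rich as the clusters was not tested. The clusters are 120 to 185 kb long, and their methylated reads ranged in the DNMT3A2 line from 289 in HoxC to 1206 in HoxB. Counting error of the windows and of each cluster therefore differs, which was not corrected for.

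The second comparison asked whether the DNA around the clusters shared the lower level. It did so only slightly. Over 23134 sites within 500 kb of the clusters the log2 ratio to the density-matched level was -0.06 in the SETD2 knockout line (-0.09 to -0.02), -0.17 in the DNMT3B1 line (-0.24 to -0.11) and -0.07 in the DNMT3A2 line (-0.11 to -0.03). The flanks were then brought towards the density of the clusters in 6 density bins. The clusters stood at 0.921 times the flanks in the SETD2 knockout line (log2 -0.12, -0.24 to 0.00). They stood at 0.601 times in the DNMT3B1 line (-0.73, -0.95 to -0.52) and 0.575 times in the DNMT3A2 line (-0.80, -0.96 to -0.63). The SETD2 knockout value did not pass the test against the flanks. Matching in 6 bins is coarser than matching at exact density. Against autosomal sites it moved the ratio of the clusters from -0.17 to -0.30 in the SETD2 knockout line. It moved that of the DNMT3B1 line from -0.87 to -1.02, and that of the DNMT3A2 line was lower too. The ratios over the flanks may therefore be too low, and their size at exact density was not tested.

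HoxA, HoxB and HoxD were below their surroundings with DNMT3B1 or DNMT3A2, and HoxC was not separable from its own in any line. In the knockout HoxA and HoxD were below theirs by narrower margins, and HoxB was not separable from its own. The DNMT3A2 log2 ratio of cluster over flanks was -1.32 for HoxA (-1.67 to -0.97), -0.56 for HoxB (-0.78 to -0.33), -0.31 for HoxC (-0.74 to 0.11) and -1.37 for HoxD (-1.85 to -0.89). The DNMT3B1 values were -1.19 for HoxA (-1.60 to -0.77), -0.67 for HoxB (-0.99 to -0.35), -0.18 for HoxC (-0.80 to 0.44) and -1.22 for HoxD (-1.90 to -0.55). With SETD2 knocked out, HoxA (-0.25, -0.49 to -0.01) and HoxD (-0.42, -0.75 to -0.08) were below their flanks, and HoxB (-0.11, -0.30 to 0.08) and HoxC (0.09, -0.24 to 0.43) were not separable from theirs. Against autosomal sites, 6 bins in place of exact density moved the knockout value of HoxA from -0.07 to -0.22. That of HoxD moved from -0.23 to -0.35. Whether the knockout calls of HoxA and HoxD against their flanks hold at exact density was not tested. The flanks of HoxC were themselves below the density-matched level, by log2 ratios of -0.32 in the SETD2 knockout line, -0.37 with DNMT3B1 and -0.46 with DNMT3A2, and those of HoxA were above it in the SETD2 knockout line (0.10, 0.04 to 0.17) and in the DNMT3A2 line (0.22, 0.15 to 0.29).

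**Figure D2:**
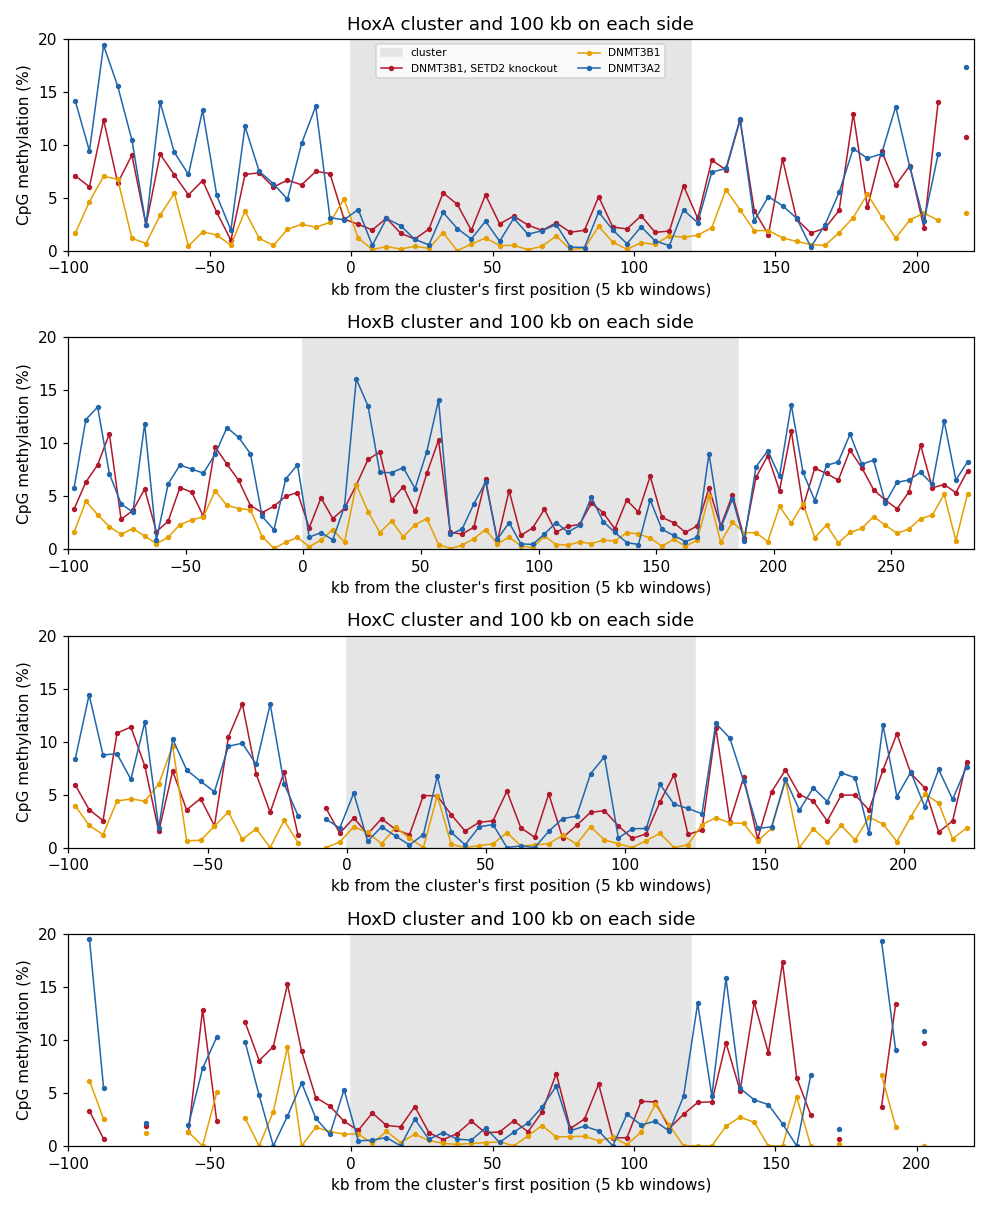
CpG methylation in 5 kb windows across each Hox cluster (grey) and 100 kb on each side, in the SETD2 knockout, DNMT3B1 and DNMT3A2 lines, with distance from the first position of the cluster on the x axis. Windows with under 5 sites are left open, and levels are low over most of each cluster. Higher windows lie in every cluster. Examples are HoxA at 115 kb, HoxB between 20 and 60 kb and at 170 kb, HoxC at 30, 90 and 115 kb and HoxD at 70 kb.

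The border was followed with the sites grouped by distance from the nearest cluster end. Methylation was low up to the border and for a short way beyond it. In the last 10 kb inside, the log2 ratio to the density-matched level was -0.21 in the SETD2 knockout line (-0.44 to 0.03), -0.64 in the DNMT3B1 line (-1.09 to -0.19) and -1.28 in the DNMT3A2 line (-1.60 to -0.95). In the first 10 kb outside it was -0.56 (-0.84 to -0.27), -0.90 (-1.38 to -0.42) and -0.68 (-1.08 to -0.28) in the same order of lines, over 459 sites. From 10 to 25 kb outside it was 0.00, -0.30 and -0.09, with intervals that included 0 in each line. Further out the DNMT3B1 line was below the density-matched level again in several classes, at -0.36 from 25 to 50 kb (-0.63 to -0.08) and at -0.23 from 100 to 200 kb (-0.38 to -0.09) and from 300 to 400 kb (-0.37 to -0.09). From 100 to 200 kb the other two lines were slightly below it, at -0.11 (SETD2 knockout) and -0.10 (DNMT3A2). In the SETD2 knockout line the first 10 kb outside was thus the lowest of all distance classes, and HoxD had the lowest value there (-1.07, -1.62 to -0.51, 86 sites). The cluster windows were set by position, and their ends are not gene ends.

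**Figure D3:**
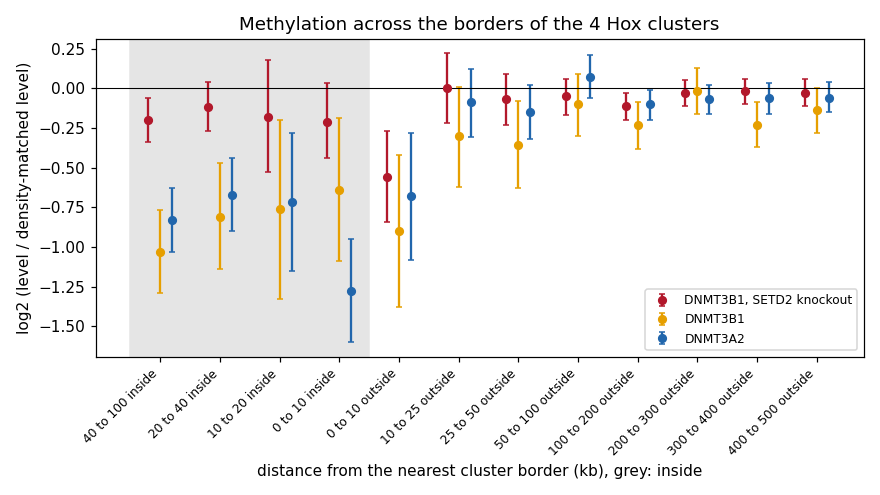
Log2 ratio of the methylation level to the density-matched level by distance from the nearest border of the 4 Hox clusters (grey, inside), in the SETD2 knockout, DNMT3B1 and DNMT3A2 lines. Points pool the sites of all clusters and bars are 95% intervals; values lie below 0 up to 10 kb outside the border and return to between -0.36 and 0.07 from 10 kb outwards.

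The third comparison asked whether the 3 lines differed in the clusters beyond their difference elsewhere. They did in the SETD2 knockout line. Its level was 3.63 times that of the DNMT3B1 line in the clusters, whereas at density-matched sites it was 2.23 times as high, a relative log2 ratio of 0.70 (95% interval 0.52 to 0.88). It was 1.36 times the level of the DNMT3A2 line in the clusters, whereas at density-matched sites it was 0.865 times that level, a relative log2 ratio of 0.65 (0.52 to 0.79). With all densities pooled, the SETD2 knockout line was thus above the DNMT3A2 line in the clusters and below it at other sites of the same density. At 40 or more CpGs per kb it was above the DNMT3A2 line at both, by 2.23 times in the clusters and by 1.43 times at density-matched sites, and at 5 to 9 CpGs per kb it was below that line at both, at 0.929 and 0.888 times. The DNMT3B1 and DNMT3A2 lines did not differ in this way, with a relative log2 ratio of DNMT3B1 over DNMT3A2 of -0.05 (-0.26 to 0.15).

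The same order held in each cluster. The SETD2 knockout over DNMT3B1 gave relative log2 ratios of 0.91 in HoxA (0.59 to 1.23), 0.65 in HoxB (0.37 to 0.93), 0.50 in HoxC (-0.10 to 1.10) and 0.55 in HoxD (0.11 to 0.99), and only that of HoxC included 0. These last 2 calls depended on the setting, since at a minimum of 10 reads the interval of HoxD included 0 (0.48, -0.16 to 1.12), and that of HoxC excluded it under 3 alternatives, as with clusters trimmed by 10 kb at each end (0.68, 0.03 to 1.33). The SETD2 knockout over DNMT3A2 gave 0.83 in HoxA, 0.52 in HoxB, 0.53 in HoxC and 0.74 in HoxD, with intervals that excluded 0 in all 4 clusters. In the flanks the 2 relative log2 ratios were 0.12 (0.05 to 0.18) and 0.02 (-0.03 to 0.06). At the densest autosomal sites, with 100 or more CpGs per kb, the level was 0.407% in the SETD2 knockout line, 0.142% with DNMT3B1 and 0.174% with DNMT3A2. Incomplete conversion was not measured separately, so these levels may hold true methylation as well. With these levels subtracted as a background the 2 relative log2 ratios of the clusters were 0.83 and 0.68.

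CpG density separated these results within the clusters. At 20 to 39 CpGs per kb, the 2811 Hox sites had 3.23% methylation in the SETD2 knockout line, 0.870% with DNMT3B1 and 2.35% with DNMT3A2, against density-matched levels of 4.15%, 1.99% and 5.29%. The log2 ratios were -0.36 (-0.50 to -0.22), -1.19 (-1.49 to -0.90) and -1.17 (-1.39 to -0.95), the lowest of the 4 densest classes in the DNMT3B1 and DNMT3A2 lines. At 10 to 19 CpGs per kb they were -0.37, -0.94 and -0.85, each with an interval that excluded 0. The 38 sites at 1 to 4 CpGs per kb were too few to separate from their density-matched levels in any line.

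With density counted in 1 kb, the direction turned at CpG-dense sites in the SETD2 knockout line. At 40 to 59 CpGs per kb its 2250 Hox sites had 1.81% methylation (1.70% to 1.92%), above a density-matched level of 1.22%, a log2 ratio of 0.56 (0.33 to 0.80). At 60 or more CpGs per kb its 2224 Hox sites had 0.841%, against 0.476%, a log2 ratio of 0.82 (0.53 to 1.11). The DNMT3B1 line had 0.326% at 40 to 59 CpGs per kb (-0.51, -0.99 to -0.04) and 0.211% at 60 or more (0.43, -0.25 to 1.12). The DNMT3A2 line had 0.928% (-0.09, -0.47 to 0.30) and 0.272% (0.32, -0.19 to 0.84) in the same classes. In the SETD2 knockout line the Hox value at 40 to 59 CpGs per kb was above the density-matched level with an interval that excluded 0 in HoxA (0.60), HoxC (0.86) and HoxD (0.70), and was 0.31 in HoxB (-0.09 to 0.71). At 60 or more CpGs per kb it was above that level in HoxA (0.91, 0.52 to 1.30) and HoxB (1.11, 0.58 to 1.65), whereas the interval included 0 in HoxD (0.57, -0.09 to 1.23) and in HoxC, where the value was negative (-0.50, -1.26 to 0.25). Density counted in 200 bp moved the knockout ratio of all clusters pooled from -0.17 to -0.48. Whether the turn holds with density counted in that way was not tested.

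The knockout difference was present in the pooled sites below and above this density, but not in every class. Below 40 CpGs per kb the relative log2 ratio of the SETD2 knockout over DNMT3B1 was 0.62 (0.42 to 0.83), and at 40 or more it was 0.85 (0.46 to 1.24). The SETD2 knockout over DNMT3A2 gave 0.56 (0.41 to 0.71) below 40 CpGs per kb and 0.64 (0.33 to 0.95) at 40 or more. Both relative log2 ratios had intervals above 0 at 10 to 19, 20 to 39 and 40 to 59 CpGs per kb. At 5 to 9 CpGs per kb they were 0.01 over DNMT3B1 (-0.44 to 0.47) and 0.06 over DNMT3A2 (-0.29 to 0.42), and at 60 or more they were 0.39 (-0.27 to 1.05) and 0.50 (-0.10 to 1.09). Over the 38 sites at 1 to 4 CpGs per kb the SETD2 knockout was lower relative to DNMT3A2 than at density-matched sites (-1.17, -2.18 to -0.16). In the 4 flanks together the 1277 sites at 40 to 59 CpGs per kb had log2 ratios of -0.65, -0.62 and -1.03 in the SETD2 knockout, DNMT3B1 and DNMT3A2 lines.

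**Figure D4:**
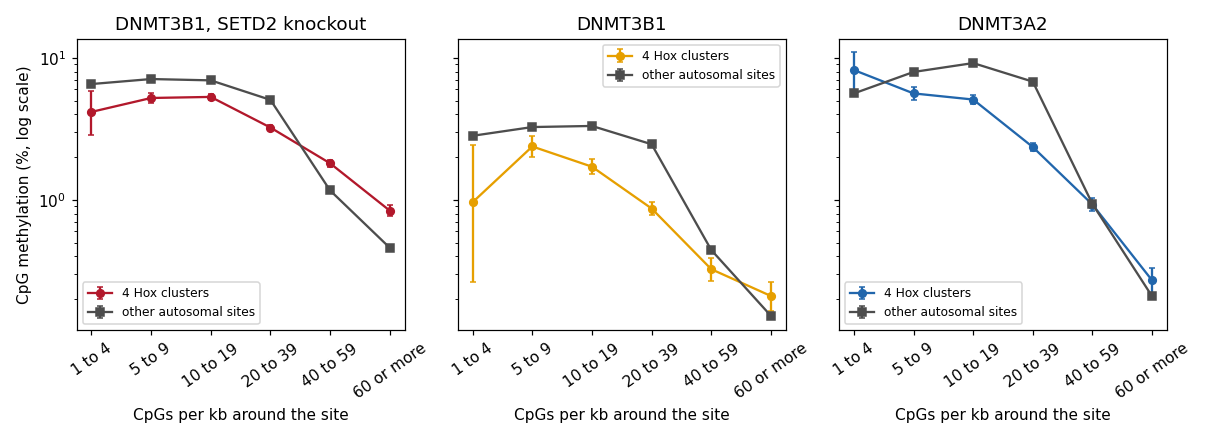
CpG methylation (log scale) by CpG density in the 1 kb around a site, for the 4 Hox clusters (coloured circles) and for other autosomal sites (grey squares), with 1 panel each for the SETD2 knockout, DNMT3B1 and DNMT3A2 lines. Bars are exact 95% binomial intervals; Hox sites lie below other sites at 5 to 39 CpGs per kb in each line, and above them at 40 or more in the SETD2 knockout line.

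Inside the clusters 54 whole tiles of 10 kb had at least 20 sites. A tile was called low where its level was at least 2-fold below the density-matched level with an interval that excluded 0. In the SETD2 knockout line 5 of 54 Hox tiles were low (9.26%), against 4.56% of 109044 other autosomal tiles. In the DNMT3B1 line 18 were low (33.3%), against 7.25%, and in the DNMT3A2 line 24 (44.4%), against 7.29%. The same rule in the other direction called none of the Hox tiles in any line, against 0.796% of the other tiles in the SETD2 knockout line, 4.10% with DNMT3B1 and 1.69% with DNMT3A2. The median Hox tile had a log2 ratio of -0.21, -0.83 and -0.99 in the 3 lines, whereas the median of the other tiles was -0.01, -0.12 and -0.03. The SETD2 knockout count moved with the setting, with 17 of 109 low in tiles of 5 kb (15.6%, against 7.12% of other tiles) and 0 of 24 in tiles of 20 kb (against 2.98%). At a minimum of 10 reads 3 of 53 were low (5.66%, against 6.20%), and at a minimum of 1 read 1 of 54 (1.85%, against 4.18%), so the count of this line did not stay above the background.

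The low tiles were spread over all 4 clusters. In the DNMT3A2 line 7 of 12 tiles were low in HoxA, 8 of 18 in HoxB, 5 of 12 in HoxC and 4 of 12 in HoxD. In the DNMT3B1 line the counts were 6, 5, 3 and 4, and in the SETD2 knockout line 0, 1, 1 and 3. Low in all 3 lines were 2 tiles of the 54 (3.70%, against 0.529% of other tiles). One of them was chr2:74520001-74530000 in HoxD, which holds the placed starts of Hoxd11 and Hoxd10, with 0.911%, 0.182% and 0.989% methylation in the SETD2 knockout, DNMT3B1 and DNMT3A2 lines. The other was chr11:96110001-96120000 in HoxB, with 1.51%, 0.199% and 1.62%.

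Among tiles ranked by the mean of the 3 log2 ratios, the lowest of each cluster differed in position. In HoxA it was the first tile, chr6:52100001-52110000, with log2 ratios of -0.86 in the SETD2 knockout line, -1.93 with DNMT3B1 and -1.72 with DNMT3A2. In HoxB it was the tile low in all 3 lines, with -1.10, -2.78 and -1.09. In HoxC it was chr15:102810001-102820000, with -0.46, -2.44 and -2.74, and in HoxD it was chr2:74500001-74510000, which holds the start of Hoxd13, with -0.16, -0.84 and -3.48. That HoxD tile had 2 methylated reads of 1676 in the DNMT3A2 line (0.119%) and 58 of 3177 in the SETD2 knockout line (1.83%). Fewer than 3 methylated reads were counted as 3 in these ratios, so its -3.48 is less low than its reads alone would give. In HoxC this rule raised chr15:102780001-102790000 with DNMT3B1 (1 of 1037 reads, -2.09) and chr15:102800001-102810000 with DNMT3A2 (1 of 883, -3.17). Which HoxC tile is the lowest depends on this rule.

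The highest tiles by the same mean had means close to 0 in HoxA and HoxC and a lower one in HoxD. In HoxA the highest, chr6:52200001-52210000, had 0.35, -0.42 and 0.01 in the SETD2 knockout, DNMT3B1 and DNMT3A2 lines. In HoxC 2 tiles tied at a mean of -0.02, chr15:102770001-102780000 and chr15:102850001-102860000. In HoxD the highest was chr2:74600001-74610000, which holds the start of Hoxd1, with -0.59 (-1.08 to -0.10), 0.41 and -0.84, a mean of -0.34. Only 3 Hox tiles had an interval wholly above 0 in the SETD2 knockout line, and they were chosen here after their values were seen. They were chr2:74490001-74500000 with the start of Evx2 (0.61, 0.06 to 1.15), chr2:74570001-74580000 (0.53, 0.11 to 0.94) and chr6:52150001-52160000 with the starts of Hoxa5 and Hoxa6 (0.53, 0.11 to 0.95).

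HoxB held the one long stretch at the level of other DNA. Its 4 tiles from chr11:96070001 to 96110000 were the only Hox tiles with under 15 CpGs per kb, and no Hox promoter was placed in them. Over their 253 sites the level was 6.77% in the SETD2 knockout line, 2.64% with DNMT3B1 and 9.79% with DNMT3A2, against density-matched levels of 6.78%, 3.23% and 8.72%. The first of these tiles, chr11:96070001-96080000, reached 14.3% in the DNMT3A2 line (161 of 1125 reads, log2 ratio 0.71, 0.35 to 1.08) and was the most methylated tile of the 54 in that line. It was the third tile from the cluster border, and the tile at the border itself had 1.37% in the same line. Without these 4 tiles, a setting chosen after seeing the data, the clusters as a whole had log2 ratios of -0.18, -0.94 and -0.96 to the density-matched level in the SETD2 knockout, DNMT3B1 and DNMT3A2 lines.

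Tile by tile the lines followed one another loosely. Across the 54 Hox tiles the log2 ratios had a Spearman rho of 0.54 between the SETD2 knockout and DNMT3B1 lines, 0.32 between the SETD2 knockout and DNMT3A2 lines and 0.31 between the DNMT3B1 and DNMT3A2 lines. Across the 109044 other tiles rho was 0.31, 0.39 and 0.31. Tiles share their CpG density and mappability between lines and neighbouring tiles are not independent, so these values describe the libraries and carry no test.

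At single sites most Hox CpGs had no methylated read at all. This was so for 74.9% of Hox sites in the SETD2 knockout line, 94.5% with DNMT3B1 and 86.5% with DNMT3A2, against 63.8%, 84.1% and 63.2% at the autosomal sites. In none of the 3 lines did 5695 sites (64.5%) have a methylated read, against 39.6% of the autosomal sites, and this share was 59.1% in HoxB and 72.0% in HoxD. These shares depend on depth and CpG density, which were both higher in the clusters. Sites with at least 50% methylation numbered 10 in the SETD2 knockout line, 7 with DNMT3B1 and 28 with DNMT3A2, which is 0.113%, 0.0792% and 0.317% of the Hox sites, against 1.06%, 0.593% and 2.01% of the autosomal sites. None of those in the SETD2 knockout and DNMT3B1 lines lay in HoxA.

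Runs of consecutive measured sites without a methylated read in any line reached from 31 to 54 sites. The longest in HoxB had 54 sites over 1629 bp, at chr11:96180238-96181866, and began downstream of the placed start of Hoxb4, with 1106, 772 and 584 reads in the SETD2 knockout, DNMT3B1 and DNMT3A2 lines. The longest in HoxA had 35 sites over 487 bp at chr6:52108345-52108831. The longest in HoxC had 31 sites over 726 bp at chr15:102844341-102845066, and that in HoxD had 34 sites over 612 bp at chr2:74519828-74520439. The run of HoxD covers the second placed start of Hoxd11, whose sequence is printed above without a capital.

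The most methylated single sites lay at 8 to 30 CpGs per kb, and some had methylated neighbours. Among sites covered by 10 reads or more in every line, the highest mean over the 3 lines was at chr11:96079472 in the CpG-poor stretch of HoxB, with 7 of 12 reads methylated in the SETD2 knockout line, 3 of 18 in the DNMT3B1 line and 6 of 13 in the DNMT3A2 line. The other two HoxB sites named by this rule, at chr11:96078188 and chr11:96081323, lay in or next to the same tile and had no methylated read in the DNMT3B1 line (0 of 12 and 0 of 10). They had 9 of 19 and 6 of 35 in the SETD2 knockout line and 14 of 25 and 7 of 10 in the DNMT3A2 line. The highest site of HoxC, at chr15:102776710, was methylated in 7 of 10 reads in the DNMT3B1 line and in 0 of 10 and 0 of 11 in the SETD2 knockout and DNMT3A2 lines. With so few reads these sites have wide intervals, such as 34.8% to 93.3% for 7 of 10 reads. The highest sites of HoxA, at chr6:52111137, and of HoxD, at chr2:74602990, had a mean of 23.5% and 20.5% over the 3 lines.

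The placed Hox promoters, which span 250 bases before to 50 bases after a gene start, were less methylated and denser in CpGs than the rest of the clusters. Over their 306 sites 1.15% of reads were methylated in the SETD2 knockout line (78 of 6760, exact 95% interval 0.913% to 1.44%), 0.262% in the DNMT3B1 line (11 of 4206, 0.131% to 0.467%) and 0.566% in the DNMT3A2 line (24 of 4239, 0.363% to 0.841%). Outside all placed promoters the Hox sites had 2.70%, 0.746% and 1.99%, at a mean of 43.9 CpGs per kb against 66.2 in the Hox promoters. Against density-matched sites the Hox promoters had log2 ratios of -0.17 (-0.82 to 0.47), -1.03 (-2.37 to 0.30) and -1.22 (-1.83 to -0.61) in the same order of lines. The Hox sites outside promoters had -0.17, -0.87 and -0.82, which lie within these intervals. Against other autosomal promoters of the same CpG density, the Hox promoters had log2 ratios of 0.65 in the SETD2 knockout line (-0.10 to 1.41), 0.05 in the DNMT3B1 line (-1.28 to 1.37) and -0.05 in the DNMT3A2 line (-0.66 to 0.56). All 3 intervals included 0 and were wide, so a difference was not detectable at this depth.

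Of the 19 Hox promoters with at least 5 measured sites, 5 had no methylated read in the SETD2 knockout line, 13 had none in the DNMT3B1 line and 12 had none in the DNMT3A2 line. Of 13504 other autosomal promoters with as many sites, 43.1%, 79.4% and 72.5% had none in the same order of lines. More than 1% was reached by 7, 2 and 4 of the 19, against 22.6%, 9.68% and 15.8% of the other promoters. These shares are not matched on CpG density or depth, and the difference was not tested. Hoxa2, which acts in the hindbrain, was the highest in the SETD2 knockout line at 5.97% (8 of 134 reads, all at the 2 CpGs in capitals), with 0 of 154 reads in the DNMT3B1 line and 0 of 100 in the DNMT3A2 line. Hoxb8 had 3.76% (10 of 266 reads) in the SETD2 knockout line, 1 of 137 in the DNMT3B1 line and 0 of 150 in the DNMT3A2 line. Hoxa3, at an annotated start placed between those of Hoxa6 and Hoxa7, had 2.47% (14 of 567), 0 of 280 and 4 of 249 in the same order. Hoxa6 had 1.62% (9 of 554), 0 of 485 and 2 of 324. These 4 promoters were grouped here after their values were seen, so their order of lines does not describe the 19. At Hoxa7, Hoxb4, Hoxd9 and Hoxa13, given below, another line had the most methylated reads.

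Hoxa7 had the highest DNMT3A2 level of the 19 promoters, 4.55% (7 of 154 reads, 1.85% to 9.14%), with 1 of 200 in the SETD2 knockout line and 0 of 113 in the DNMT3B1 line. Hoxb4 had 2 of 99 reads in the DNMT3A2 line and none in the other two. Hoxd12, which acts in the limb, had 6 of 237 reads in the SETD2 knockout line, 1 of 95 in the DNMT3B1 line and 1 of 191 in the DNMT3A2 line. Hoxd13, another limb gene, had 3 of 87, 0 of 57 and 0 of 36. At Hoxd9 the 2 methylated reads were in the DNMT3B1 line (2 of 103). Hoxa13 had 2 of 904 reads in the SETD2 knockout line, 4 of 466 in the DNMT3B1 line and 0 of 511 in the DNMT3A2 line. Hoxa10, Hoxa11, Hoxa5, Hoxd10 and Hoxd3 stayed at or below 1.60% in each line.

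Hoxd1, Hoxd8 and the second start of Hoxd11 had no methylated read in any line. For Hoxd1 this was 0 of 450 reads in the SETD2 knockout line, 0 of 201 in the DNMT3B1 line and 0 of 290 in the DNMT3A2 line, which allows levels up to 0.816%, 1.82% and 1.26% (exact 95% intervals). For Hoxd11 the limits were 0.866%, 1.25% and 0.976%. Among promoters with under 5 measured sites, Hoxd4 had 7 of 48 reads in the SETD2 knockout line (14.6%) and 0 of 23 and 0 of 19 in the DNMT3B1 and DNMT3A2 lines, over 3 sites at 12.2 CpGs per kb. Hoxa9, Hoxb1, Hoxc4 and the first start of Hoxd11 had 2 methylated reads or fewer in each line.

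**Figure D5:**
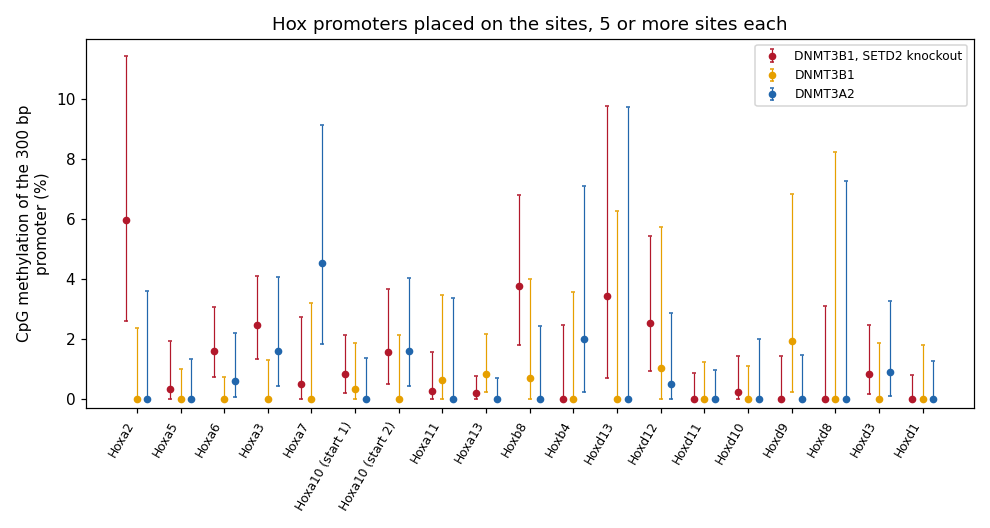
CpG methylation of the 19 placed Hox promoters with at least 5 measured sites, in the SETD2 knockout, DNMT3B1 and DNMT3A2 lines, ordered by cluster. Points are levels of 1 library per line and bars exact 95% binomial intervals; the highest are Hoxa2 at 5.97% in the SETD2 knockout line and Hoxa7 at 4.55% in the DNMT3A2 line, and most points of the DNMT3B1 line lie at 0.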

How the data were processed

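Whole-genome bisulfite sequencing was used to measure CpG methylation. The authors deposited counts of total and methylated reads per CpG site with both strands joined, per the file headers, and for the SETD2 knockout also the fraction of methylated reads (build mm9, as the submitters' processing notes list it). Aligner, caller and duplicate handling are steps not given in the sources used here. The 2 sets of SETD2 knockout values were identical and were counted as 1 sample.

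From these counts, levels were pooled as methylated over total reads with exact (Clopper-Pearson) 95% intervals. CpG density was the number of listed CpG sites within 500 bp on each side, itself included. The density-matched level weighted the level of autosomal sites, more than 1 Mb from any cluster, by the reads that the region had at each density (capped at 100). Log2 ratios have 95% intervals from a ratio estimator over 500 bp blocks, and count fewer than 3 methylated reads as 3. Flanks were standardised in 6 density bins. Relative log2 ratios subtract the density-matched log2 ratio of the same 2 lines. Promoters with at least 4 CpGs were placed by CpG spacing, and 20782 of 21695 autosomal ones matched once. Named tiles were the highest and the lowest of each cluster by the mean log2 ratio, and named sites the 3 highest of each cluster by mean level. The steps were run on simulated data in which 500 bp blocks varied independently, so correlation over longer distances was not tested. Alternatives changed the coverage limits, density matching, subtracted background, borders, flanks, tiles and the clusters included. The members and lists were chosen with earlier results of these data known. Tools were numpy 2.4.6, scipy 1.17.1, pandas 2.3.3 and, for plots, matplotlib 3.10.9 under Python 3.11.15.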

Additional observations from a re-analysis of the deposited data

Results flagged for a closer look

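The departure of the 4 Hox clusters from the level of autosomal sites of the same CpG density differed between lines, by the interval of the difference itself. The SETD2 knockout line exceeded the DNMT3B1 line in the clusters by more than at density-matched sites, with a relative log2 ratio of 0.70 (95% interval 0.52 to 0.88). It exceeded the DNMT3A2 line in the same way, with a relative log2 ratio of 0.65 (0.52 to 0.79). Each line was 1 library, so the spread between cultures is not part of these intervals. The labels name single and paired-end runs for the SETD2 knockout line and only sequencing instruments for the others, so library type cannot be compared. Coverage differed with the lines, and its part in the result was not tested beyond the values with coverage matching, which were 0.74 and 0.69.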

How the results depend on the processing

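Below the density-matched level, the DNMT3B1 and DNMT3A2 ratios kept their direction and an interval without 0 under all 15 alternatives, from -1.22 to -0.81 and from -1.20 to -0.70, as did the relative ratios of the SETD2 knockout over DNMT3B1 (0.60 to 0.83) and over DNMT3A2 (0.56 to 0.78). That of DNMT3B1 over DNMT3A2 stayed between -0.15 and 0.02. The SETD2 knockout ratio ranged from -0.48 to -0.09, and its interval reached 0 where 10 reads were required (-0.11) and with matching on 1 kb and 10 kb density (-0.09). Over the flanks it ranged from -0.39 to -0.04 and excluded 0 at a minimum of 1 read (-0.13), with density counted in 200 bp (-0.39), without HoxC (-0.17) and without tiles of under 15 CpGs per kb (-0.13). Leaving out 1 cluster at a time gave -0.23 to -0.15 (SETD2 knockout), -0.91 to -0.83 (DNMT3B1) and -0.92 to -0.79 (DNMT3A2) against density-matched sites, and -0.17 to -0.09, -0.82 to -0.58 and -1.06 to -0.60 against the flanks. The count of low tiles in the SETD2 knockout line was 5 of 54 (4.56% of other tiles). It was 17 of 109 in 5 kb tiles (7.12% of other tiles), 0 of 24 in 20 kb tiles (2.98%), 0 of 54 at 3-fold (1.55%), 3 of 53 at a minimum of 10 reads (6.20%) and 1 of 54 at a minimum of 1 read (4.18%). In DNMT3B1 it was 28 of 109 in 5 kb tiles (4.62% of other tiles) and 8 of 24 in 20 kb tiles (5.99%). In DNMT3A2 it was 44 of 109 (8.75%), 11 of 24 (7.08%) and, at 3-fold, 13 of 54 (3.11%). Tiles of other sizes differ in number by construction, and otherwise the cause was not tested. For single clusters, the density-matched ratio of HoxC in the DNMT3B1 line reached 0 at 10 reads (-0.60), as did the relative ratio of SETD2 knockout over DNMT3B1 in HoxD (0.48). That relative ratio in HoxC excluded 0 at 1 read (0.61), when matched within the chromosome (0.61) and with trimmed clusters (0.68). In the SETD2 knockout line the density-matched ratio of HoxB lost its call under 3 alternatives, that of HoxC under 1 and that of HoxD under 5, and HoxA gained it under 2 (-0.22 in 6 density bins, -0.49 with density in 200 bp). Matching on 10 kb density or on coverage and leaving out CpG-poor tiles were chosen after seeing the data. No paired analysis was possible because the 2 runs of a line are not separate in the deposited values. Depth limits the single promoters and sites, whose intervals are wide, and HoxC, with the fewest sites.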

Other observations

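The clusters also hold starts of other transcripts, which were placed in the same way and are given as values only. Evx2, a homeobox gene beside Hoxd13, had 9 of 254 methylated reads in the SETD2 knockout line (3.54%), 1 of 143 in the DNMT3B1 line and 1 of 131 in the DNMT3A2 line. Hottip, a non-coding RNA at the Hoxa13 end of HoxA, had 3 of 300, 0 of 87 and 4 of 168 in the same order of lines. Hoxa11os, antisense to Hoxa11, had 9 of 857 (1.05%), 0 of 586 and 5 of 481 (1.04%). Hoxb3os had 1 of 581, 4 of 430 and 0 of 345, and Hoxd3os1 had no methylated read in any line. In HoxC, where no Hox promoter had 5 measured sites, Gm29905 had 0 of 150 reads in the SETD2 knockout line, 0 of 62 in the DNMT3B1 line and 7 of 67 in the DNMT3A2 line (10.4%).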
